A study of Mus musculus with 19 samples.

Results

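A223 is a mouse squamous cell carcinoma line whose strain the labels give as C57BL/6-derived. Its cells were grown in culture, and polyA RNA and captured exonic DNA were sequenced in 1 library each, so no comparison here has a replicate. The series otherwise followed CD8 T cells in regressing and growing A223 tumours, which are not analysed here. The results concern 55530 of the 564674 variant calls in the deposited table. These calls have a genotype in the RNA and none in the exome, replace A by G or T by C on the genome plus strand, and lie in a 3'UTR or an intron by their deposited effect. They are called RNA-only A-to-G type calls below. No measured level chose them, but the missing exome genotype is part of the choice, and it does not show that the DNA equals the reference at the site: exome coverage was not used here, and capture is directed at exons.

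Adenosine-to-inosine editing is carried out by the ADAR enzymes, which deaminate adenosine in RNA that folds into long paired stretches. Inosine is read as guanosine in sequencing, so an edited site appears as A>G in the sense of the transcript and as T>C on the plus strand for a gene of the minus strand. Editing is known for occurring in many neighbouring adenosines of one fold, mostly in inverted repeats of introns and 3'UTRs, and ADAR1 editing keeps a cell's own RNA from activating sensors of paired RNA. A difference of the DNA from the reference does not arise through the transcript in this way, but its split along the transcript need not be exactly even. Shares along the transcript are therefore set beside those of calls made in the exome and of other RNA-only changes. For editing, the plus-strand change is less informative than the change read along the transcript, which the choice of calls did not use.

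Few of the calls lie in sequence that could be read here, namely the RefSeq promoters and miRNA hairpins of GRCm38.p6. In all, 45 of the calls lay inside them, and at 3458 of 3458 table calls inside them the deposited reference base equalled the RefSeq base. The sequences of 5 calls or call pairs are shown to make the orientation visible: 3 are A>G along the transcript and 2 are T>C. They run 5′ to 3′ along the transcript with the called base as a capital.
P2rx7, in hairpin Mir8115: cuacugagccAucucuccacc
Klhdc3: aaaacctaaaAcctccaaacg
Pear1: tggctctggcAgagtcagggg
Zfp84, in hairpin Mir1964: cuuucUugcgaagcug
Txnrd1: tTagctgtgggctacattttcaatagtTcc

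The P2rx7 site, in the 3'UTR of an ATP-gated channel gene, lies in chr5:122682689-122682709 on the plus strand at position 103 of the 119-base hairpin, and was called 0/1 over 22 RNA reads. The Klhdc3 site, in the 3'UTR, lies in chr17:46674548-46674568 on the minus strand and was called 0/1 over 19 reads. The Pear1 site, in the 3'UTR of a platelet receptor gene, lies in chr3:87748637-87748657 on the minus strand and was called 0/1 over 6 reads. Against these, the Zfp84 site is an intronic T>C in chr7:29773294-29773309 on the plus strand, at position 6 of the 83-base hairpin, called 1/1 over 3 reads. The Txnrd1 pair, in an intron of the thioredoxin reductase gene, consists of 2 T>C calls in chr10:82860129-82860158 on the plus strand, both 0/1, over 29 and 22 reads. Both orientations thus occur among the calls.

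The calls are mostly intronic and thinly read. In introns lay 51778 calls, of which 579 had a splice term in their effect, and in 3'UTRs 3752. They fell in 3962 genes, with a median of 3 per gene, and 1254 genes held 1 call. Along the plus strand 27930 were A>G and 27600 were T>C. RNA reads over the calls summed to 966922. By chromosome the number ran from 1 on Y to 6236 on chromosome 8, and chromosome 2 held 498. For the labelled cell type, 15 keratinocyte and squamous carcinoma markers were looked up. Of these, 8 had no call, among them Krt5, Krt14 and Trp63, so nothing can be read at them. Krt8, Krt18 and Itga6 had calls with up to 56, 74 and 15 RNA reads. None of these calls lay in an exon, and Itga6 had 1 call. The 131 calls in Cdh1, Dsp, Dsg3 and Dsc3, which encode adherens junction and desmosome proteins, were listed at RNA depth 0 throughout, including 15 in Cdh1, 9 in Dsp and 8 in Dsg3 outside introns.

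The share of A-to-G type changes among RNA-only calls lay between those of calls made in both libraries and calls made in the exome alone. They made up 34.4% of 161277 RNA-only single-base calls in 3'UTRs and introns (exact 95% interval 34.2 to 34.7) and 35.3% of 16021 calls made in exome and RNA. The difference was -0.885 percentage points (Newcombe 95% interval -1.66 to -0.113). Among the 58066 calls with an exome genotype and no RNA genotype the share was 33.4%, and the RNA-only share was higher by 0.983 points (0.534 to 1.43). Read the other way round, 90.8% of A-to-G type calls with an RNA genotype lacked an exome genotype, against 91.1% of the other base changes. The G-to-A type, the reverse transition, took 33.2% of the RNA-only calls. Intervals here and below cover counting error only, and since calls of one gene, read or haplotype are not independent they are too narrow.

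In the 3'UTR the share was higher, at 37.9% of RNA-only calls, but it was also 38.7% of calls made in exome and RNA. The difference was -0.789 points (-3.10 to 1.49). Calls of the exome alone stood at 33.0%, and the RNA-only share was higher by 4.91 points (2.9 to 6.9). Among RNA-only 3'UTR calls the share was highest where the exome held few calls. The genome was cut into 542 windows of 5 Mb, called sparse with 20 or fewer coding exome calls, dense with 100 or more, and otherwise between. The 337 sparse windows held 9224 of the calls, the 143 windows between held 24152 and the 62 dense windows 22154. Among RNA-only 3'UTR calls the A-to-G type took 46.7% in sparse windows (610 of 1306, 44.0 to 49.5), 38.2% between and 35.0% in dense windows. Among RNA-only intron calls it took 34.9%, 34.3% and 33.9%. In 3'UTR calls of exome and RNA it took 40.7% in sparse windows (66 of 162, 33.1 to 48.7), 39.0% between and 38.1% in dense windows. In 3'UTR calls of the exome alone it took 27.9% in sparse windows (74 of 265, 22.6 to 33.7), 32.5% between and 34.2% in dense windows.

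Read along the transcript, the whole set was close to balanced. A>G accounted for 28463 calls and T>C for 27067, so that 51.3% were A>G in sense (50.8 to 51.7). The share was 49.9% for A-to-G type calls of exome and RNA, a difference of 1.31 points (-0.0572 to 2.68). For the RNA-only G-to-A type the share of G>A in sense was 51.4%, a difference of -0.132 points (-0.725 to 0.462). For A-to-G type calls of the exome alone the share was 49.3% (9571 of 19422), and the difference was 1.98 points (1.16 to 2.79). Strand came from the deposited transcript notation, and it equalled the RefSeq strand for 38150 of 38150 calls in genes matched by symbol. The set as a whole thus differed by under 2 points from each of these 3 sets, and against the G-to-A type the difference was negative. The interval excluded 0 for the exome-only set alone. The calls are therefore named by how they were chosen.

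The balance did not hold in the 3'UTR. There 57.5% of the calls were A>G in sense (2157 of 3752, 55.9 to 59.1), against 52.0% of the A-to-G type calls of exome and RNA, a difference of 5.44 points (1.66 to 9.23). Against the RNA-only G-to-A type in 3'UTRs, at 52.6%, the difference was 4.85 points (2.52 to 7.17), and against exome-only A-to-G type calls, at 49.4%, it was 8.05 points (4.41 to 11.7). In introns the share was 50.8%, against 49.6% in exome and RNA calls, 51.3% in the RNA-only G-to-A type and 49.3% in exome-only calls. With 1 call per gene, the most deeply read, the 3'UTR share was 53.5% (50.7 to 56.3).

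The 3'UTR lean was largest in 0/1 calls of sparse windows. In sparse windows 70.2% of 610 calls were A>G in sense (66.4 to 73.8), against 54.6% of 1563 calls in dense windows, a difference of 15.5 points (11.1 to 19.8). Within the sparse windows 78.0% of the 0/1 calls were A>G in sense (322 of 413, 73.7 to 81.9), against 53.8% of the 1/1 calls (106 of 197), a difference of 24.2 points (16.1 to 32.1). In the windows between, 55.4% of 1579 calls were A>G in sense (52.9 to 57.9). There the 0/1 calls stood at 57.7% (599 of 1038, 54.6 to 60.7), against 51.0% for 1/1, a difference of 6.69 points (1.52 to 11.8), and against 49.3% for 0/1 calls of the G-to-A type, a difference of 8.40 points (3.90 to 12.9). In dense windows the shares were 55.3% for 0/1 and 54.0% for 1/1. The G-to-A type there stood at 54.1% for 0/1 and 54.3% for 1/1. The A-to-G type calls of exome and RNA there stood at 59.0% for 0/1 (95 of 161, 51.0 to 66.7) and 48.2% for 1/1. The same class of G-to-A type calls, 0/1 in sparse windows, had 54.0% G>A in sense (46.8 to 61.1), and the 41 A-to-G type calls of exome and RNA had 51.2% (35.1 to 67.1). In introns of sparse windows the 0/1 share was 54.0% (52.3 to 55.7), against 49.6% for 1/1. With 1 call per gene the 0/1 share of sparse-window 3'UTRs was 75.8% (68.2 to 82.4).

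**Figure D1:**
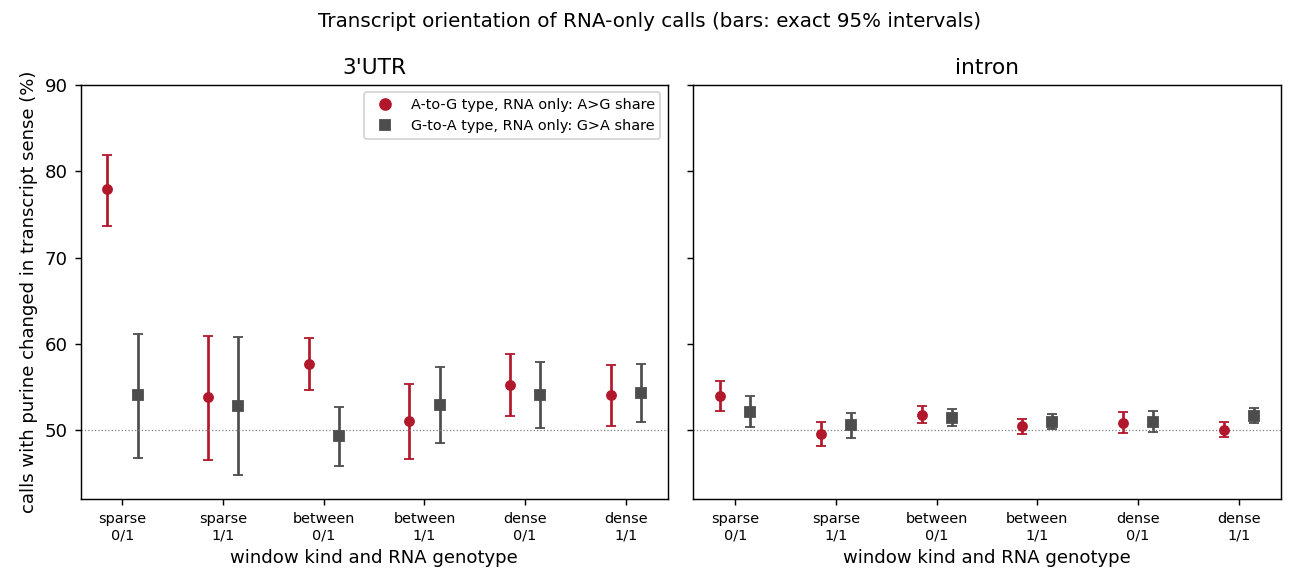
Percent of RNA-only A-to-G type calls that are A>G along the transcript (red circles) and of RNA-only G-to-A type calls that are G>A (grey squares), by region, window kind and RNA genotype, with exact 95% intervals. The 3'UTR 0/1 calls of sparse windows stand at 78.0%, and every other point lies below 58%.

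Among all 12 kinds of change, A>G was the most frequent in that class. The class was singled out after its A>G share had been seen. The same 322 A>G calls are counted again here, so this is not a separate result. Of 805 RNA-only 0/1 calls in 3'UTRs of sparse windows, 40.0% were A>G along the transcript (36.6 to 43.5), while 11.3% were its complement T>C, 13.3% were G>A and 11.3% were C>T. The other 8 changes took from 1.74% to 4.10% each. Of 501 calls with genotype 1/1, 21.2% were A>G and 18.2% were T>C. RNA coverage did not order the share steadily: in 3'UTRs it was 61.5% at under 5 reads, 60.7% at 20 to 49 reads and 51.7% at 100 or more.

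Calls lay close together, but so did other changes. Chained at 100 bases or less, 44.0% of the calls had a neighbour of the set and 21.3% lay in clusters of 3 or more, against 42.5% and 19.2% of the RNA-only G-to-A type 36.7% and 13.3% of A-to-G type calls of exome and RNA and 42.1% and 18.1% of those of the exome alone. The set formed 3018 clusters of 3 or more and 603 of 5 or more, and the G-to-A type 2786 and 434. In 3'UTRs there were 62 clusters of 5 or more, against 23 of the G-to-A type. Orientation moved with clustering there: A>G in sense made up 52.4% of isolated 3'UTR calls, 64.1% of clustered ones and 78.6% of those in clusters of 5 or more (337 of 429, 74.4 to 82.4). For the G-to-A type these shares were 50.2%, 56.5% and 58.6%.

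The 10 largest clusters nevertheless mixed both orientations and held other changes. The largest, in an intron of the coagulation factor gene F8 at chrX:75271639-75272584, held 36 calls, all 1/1, of which 19 were A>G in sense, with 22 RNA-only calls of other kinds inside it. The next lay in the 3'UTR of Prune2 at chr19:17222634-17223292. It held 26 calls, all 0/1, over 10 to 324 reads, and 4 of them were A>G in sense. In Fam172a 14 of 21 were A>G, in Suco 5 of 17, in Wls, a carrier of Wnt proteins, 7 of 16, and in Cdh8, a cadherin, 7 of 16. Mctp1 held 7 of 16, Snrpn 6 of 16, Mageb18 8 of 15 and Zfp800 8 of 15. Between 4 and 22 RNA-only calls of other kinds lay within each.

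Clusters that held 1 kind of change throughout were rare, and A>G was the most frequent kind among them. When all RNA-only substitutions were chained, 16353 clusters had 3 or more calls, and in 401 of these every call was the same change along the transcript. A>G made up 195 of the 401, or 1.19% of all 16353 clusters, and T>C 48, or 0.294%. C>T made up 52, G>A 46, and each of the other 8 changes 12 or fewer. With 5 or more calls there were 70 such clusters, of which 52 were A>G, 9 T>C and 1 G>A. This split by 1 kind of change was made after the data had been seen, and no test is given.

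**Figure D2:**
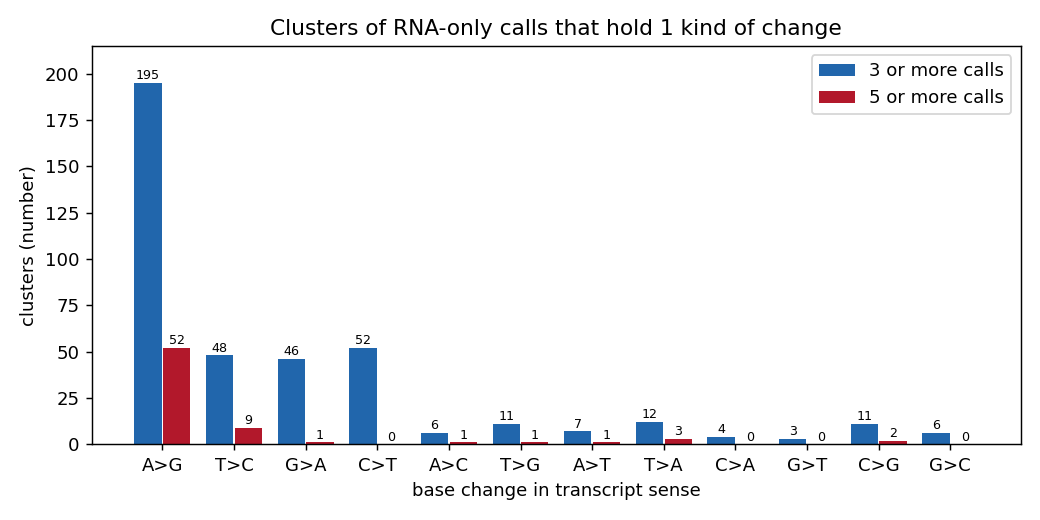
Number of clusters of RNA-only calls within 100 bases whose calls are all the same change along the transcript, for each of the 12 changes, with 3 or more calls (blue) and 5 or more calls (red). A>G reaches 195 and 52, and T>C 48 and 9.

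The A>G clusters differed from other clusters of 1 kind in region and window, and from the remaining calls of the set in genotype. They held 812 calls, 1.46% of the set, in 171 genes, which is 3.06% of the 5587 genes with an RNA-only substitution in these regions, while 70.9% of those genes held a call of the set. Of the 66 clusters of 1 kind that lay in 3'UTRs, 59 were A>G (89.4%, 79.4 to 95.6), against 135 of 334 in introns (40.4%). The share was 68.0% in sparse windows (85 of 125, 59.1 to 76.1), 44.0% between and 34.2% in dense windows (40 of 117). Genotype 1/1 was given to 23.3% of their calls and to 61.5% of the other calls of the set, a difference of -38.3 points (-41.1 to -35.2). Region was not held equal in this comparison. Over the whole set 1/1 took 40.8% of 3'UTR calls and 62.4% of intron calls, and the A>G clusters lay in 3'UTRs more often than the set. In the T>C clusters 55.1% were 1/1. Neighbouring calls lay a median of 7 bases apart, and the clusters spanned a median of 39 bases. No exome-called substitution lay in the introns and 3'UTRs of 84 of the 171 genes, and no RNA-only call of another kind in 46. The same counts were not made over all 5587 genes, so these cannot be read as particular to the 171. Of the 195 clusters 8 lay inside a gene of the other strand as well, as did 2 of the 48 T>C clusters. Outside both kinds of cluster 50.7% of the calls were A>G in sense (50.3 to 51.1).

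The genes with most calls in A>G clusters, named after these counts were seen, were led by Car5b and Mad2l1. Mad2l1, a spindle checkpoint gene on the list of ADAR targets, held 18 calls in the 3'UTR, all A>G in sense and 17 of them 0/1, with no RNA-only call of another kind in the gene. Its introns and 3'UTR also held 4 exome-called substitutions. The first cluster, chr6:66540081-66540283, had 11 calls over 49, 47, 45, 28, 26, 26, 26, 41, 43, 41 and 39 reads. The second, chr6:66540651-66540754, had 7 calls over 110, 88, 91, 95, 104, 120 and 124 reads. Every call of the second cluster thus rested on more reads than any call of the first. Rpa1, a subunit of the single-strand DNA binding complex of replication, had the deepest of these clusters. At chr11:75300560-75300623 its 7 calls had 137, 135, 131, 162, 161, 166 and 163 reads, and 2 of them were 1/1. A further 4 calls at chr11:75301000-75301032 had 115 to 151 reads. Rpa1 held 12 calls of the set, of which 11 were A>G in sense, and 2 exome-called substitutions in its introns and 3'UTR.

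Most of the other leading clusters lay in 3'UTRs and were 0/1. Car5b, a mitochondrial carbonic anhydrase gene of chromosome X, had 6 calls over 14 to 20 reads at chrX:163977961-163978032 and 13 over 3 to 12 reads at chrX:163978389-163978516, 3 of them 1/1. Xrn1, an exoribonuclease of cytoplasmic RNA decay, had 8 calls over 8 to 16 reads at chr9:96056077-96056156 and 7 over 32 to 45 reads at chr9:96057153-96057248. Gla, the gene of alpha-galactosidase A, had 9 calls over 33 to 41 reads and 5 over 42 to 88. Rnf168, a ubiquitin ligase of the DNA break response, had 9 calls over 31 to 35 reads and 5 over 32 to 61. Gnl3l, a nucleolar GTPase, had 7 calls over 40 to 48 reads and 6 over 117 to 158. In Xrn1, Gla, Rnf168 and Gnl3l every clustered call was 0/1. Nudt21, a subunit of the pre-mRNA cleavage factor, had 8 calls over 20 to 25 reads, all 0/1.

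Some leading clusters were thinly read or intronic. Of all 195 A>G clusters 135 lay in introns alone, and the median over the 195 of the median depth was 7 reads. Chrna1, a muscle acetylcholine receptor subunit, had 9 calls in the 3'UTR, each 1/1 over 2 reads. In Rmi2, a partner of the BLM helicase, 12 calls rested on 2 to 4 reads each. A930015D03Rik and Rsph3b had 15 clustered calls each in introns, over 5 to 20 reads in the first of these genes. Among genes with T>C clusters, Lrrc51 had most calls, 12 in 3 intronic clusters over 2 to 9 reads, 4 of them 1/1. Cyb5d2 had 9 over 4 to 6 reads, all 0/1, and Xk 9 over 2 reads each, all 1/1.

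**Figure D3:**
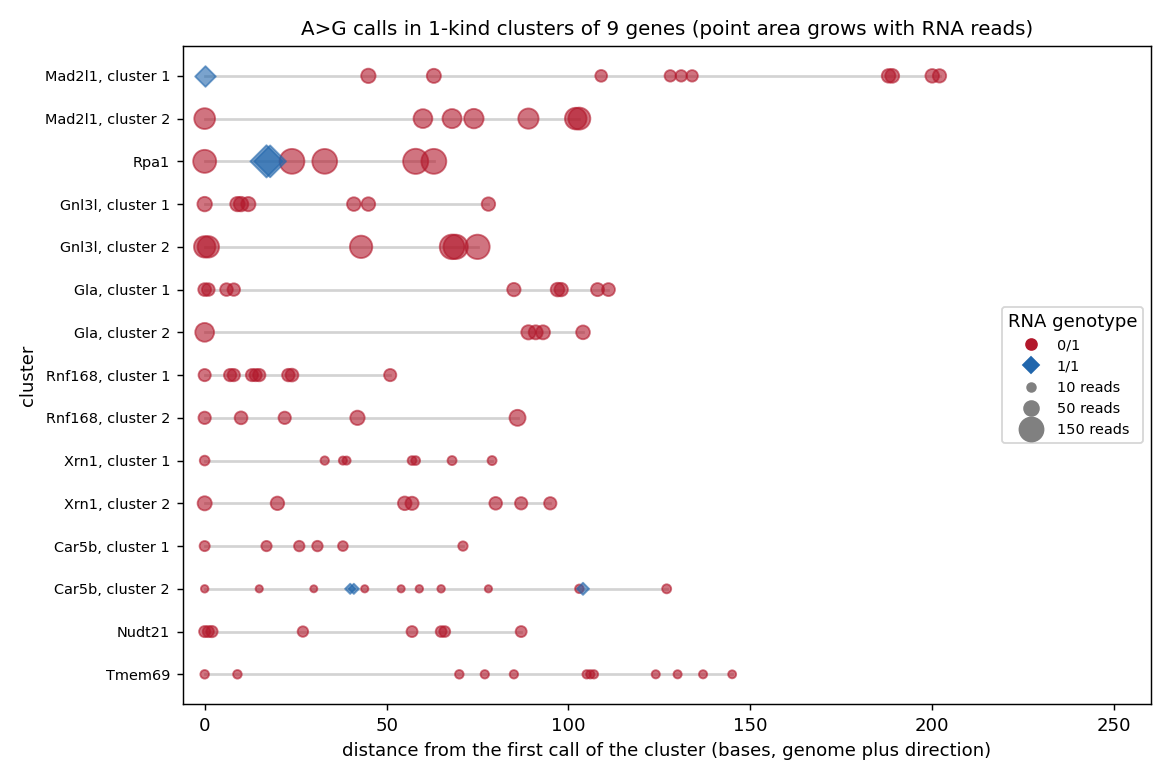
Positions of the A>G calls in clusters of 5 or more calls of 1 kind in 9 genes, as distance in bases from the first call along the plus strand, with point area by RNA reads and colour by RNA genotype. Nearly all points are 0/1 (red); 1/1 calls (blue) appear once in Mad2l1, in 2 calls of Rpa1 and in 3 of Car5b.

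A minority of whole 3'UTRs showed the same one-sidedness. They include genes of the A>G clusters above, whose calls are counted again here. Of 224 genes with 5 or more calls of the set in the 3'UTR, 39 had only A>G in sense, with 338 calls, and 3 had only T>C. Of 195 genes with 5 or more RNA-only G-to-A type calls there, 1 had only G>A and 0 had only C>T. Besides those named, the 39 included Casc5, a kinetochore gene, with 9 calls at a median of 35 reads, Trove2, the Ro autoantigen RNA-binding protein, with 6 at 110 reads, and Foxo3, a forkhead factor, with 5 at 159 reads. Usp45, a deubiquitinase, had 8 at 36 reads, and Exoc8, an exocyst subunit, had 7 at 36.

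Genotype and coverage followed the region more than the base change. Of the whole set 61.0% were 1/1, against 61.1% of RNA-only calls of other changes, a difference of -0.148 points (-0.650 to 0.352), and 70.2% of A-to-G type calls of exome and RNA, a difference of -9.24 points (-10.5 to -7.97). In 3'UTRs 40.8% were 1/1 and in introns 62.4%. Within 3'UTRs, A>G in sense was 1/1 in 37.6% and T>C in 45.1%, a difference of -7.59 points (-10.8 to -4.40). Coverage had a median of 7 reads, with the middle 50% of the calls at 4 to 13 and a range of 1 to 4398, and 15.2% had 20 or more. The median was 28 in 3'UTRs and 7 in introns. Intron calls of genotype 1/1 had a median of 5 reads, and 43.5% of them had under 5, a depth at which a 1/1 call cannot tell a full from a partial change. At 20 or more reads 45.3% of the set were 1/1. The reads with each base were not used here, so no share of edited reads can be given.

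**Figure D4:**
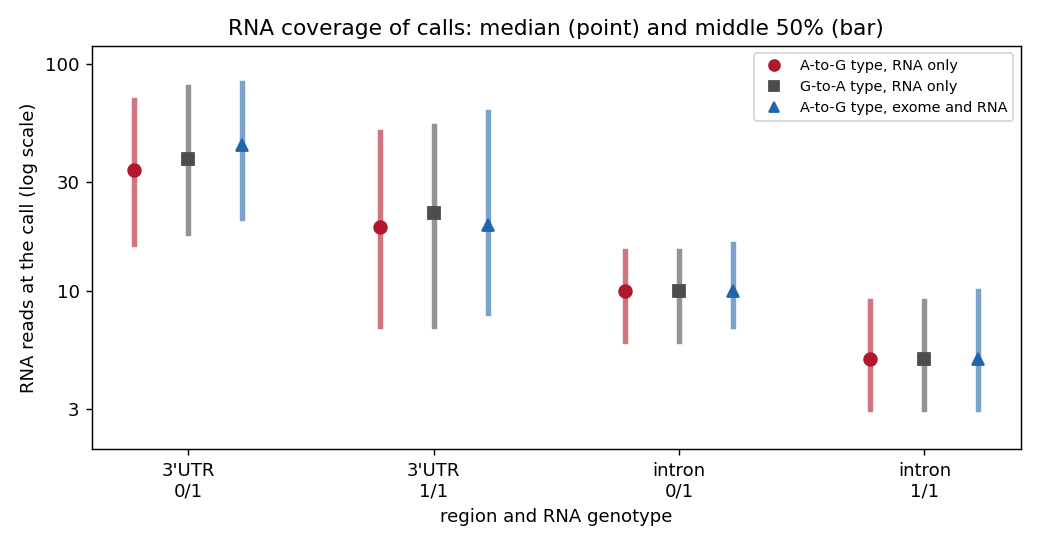
RNA reads at the calls on a log scale, by region and RNA genotype: median (point) and middle 50% of calls (bar) for RNA-only A-to-G type, RNA-only G-to-A type and A-to-G type calls of exome and RNA. In 3'UTRs the 0/1 medians are 34, 38 and 44 reads, and in introns the 1/1 medians are 5 in each set.

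The most deeply read calls were all 1/1. The lincRNA gene 6030443J06Rik held 4 of the 10, at 4398, 3819, 3773 and 3510 reads in an intron, with both orientations, and Vmp1, an autophagy gene, held 2 intronic A>G calls at 4380 and 2792 reads. Wdr89 had a 3'UTR T>C call at 3560 reads, and Lrrc58 a 3'UTR A>G call at 2526. Gm20388 and 9330179D12Rik had intronic T>C calls at 2987 and 2818 reads. None of the 10 lay in a sparse window.

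The genes with most calls were long genes read in introns, in both orientations. The first 20 held 7825 calls, 14.1% of the set, of which 86 lay in 3'UTRs and 49.8% were A>G in sense. Cdk14, a cyclin-dependent kinase, had 698 calls, Cadm1, an adhesion molecule, 657, Prkd1, a protein kinase, 604, and Fto, an RNA demethylase, 594. Kirrel3 had 413, and Nedd4l, a ubiquitin ligase, and Ptprg, a receptor phosphatase, 388 each. The receptor phosphatase Ptprm had 368, the kinase Camk2d 364, Arid5b 361 and Dlc1, a GTPase-activating protein, 336. Ppfibp1 and Atrnl1 had 314 each, the methyltransferase Smyd3 295, the protease Adamts6 281, Nav2 277, the glycosyltransferase Large 260, Mfhas1 259 and Arhgap10 255. In 18 of the 20 the interval of the A>G share held 50%; the exceptions were Smyd3 at 43.7% and Large at 59.2%. The A-to-G type took from 31.1% to 39.8% of each gene's RNA-only substitutions. Genotypes differed widely between them: all calls of Prkd1 and Dlc1 were 1/1, while 4.40% of those of Camk2d were.

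**Figure D5:**
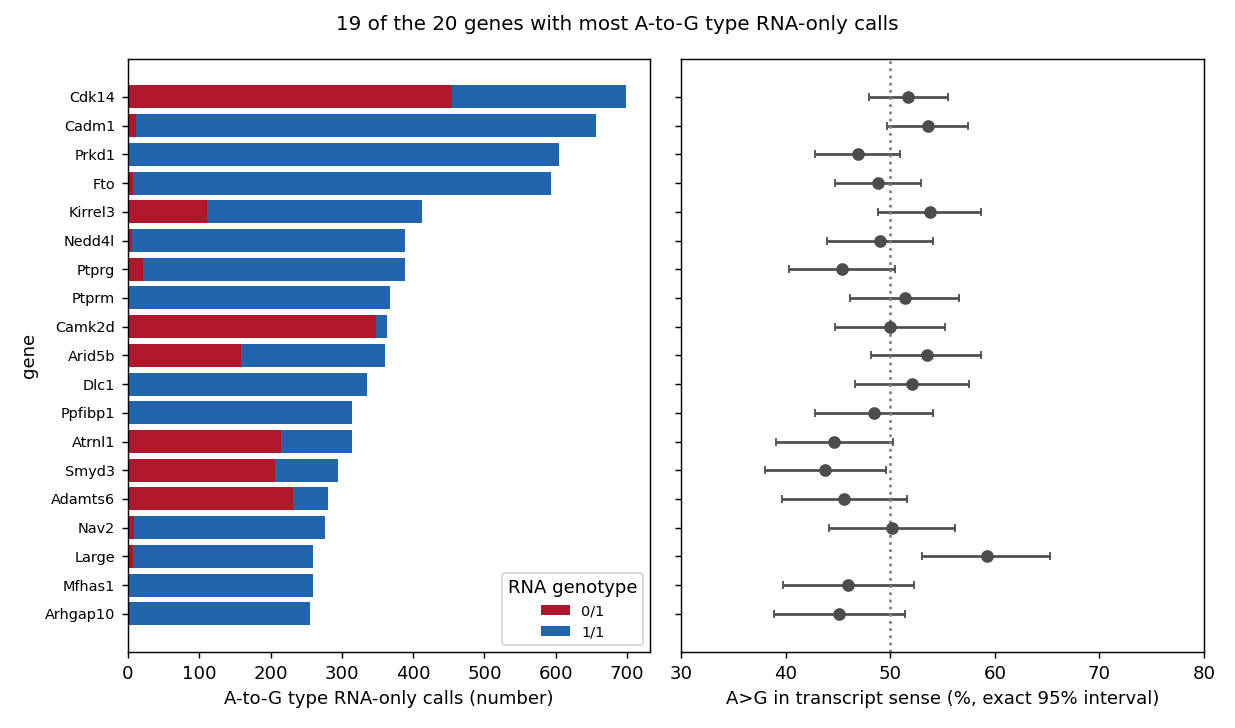
Of the 20 genes with most RNA-only A-to-G type calls, 19 are drawn: number of calls by RNA genotype (left) and percent A>G along the transcript with exact 95% intervals (right). The shares lie between 43.7% and 59.2%, around the dotted line at 50%.

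Among 40 genes listed as ADAR targets, 15 had an RNA-only substitution in these regions and 13 of them held a call of the set, where 70.9% of all such genes did. They had 193 calls with a median of 3 per gene, the median of all 3962 genes with a call, and 59.6% were A>G in sense, against 51.3% in all genes. In their 3'UTRs 30 of 32 calls were A>G, against 2157 of 3752 in all genes. Of these 3'UTR calls 18 lay in Mad2l1 and 6 in Cds2, all A>G. The 3'UTR share of the list thus rests mostly on clustered calls of these genes, which are not independent. Besides Mad2l1, Cds2, a CDP-diacylglycerol synthase, had 6 calls in the 3'UTR at chr2:132309633-132309880, all A>G, over 45, 35, 33, 28, 47 and 53 reads, the last of them 1/1. Trim12c, a tripartite motif gene, had 2 over 35 and 37 reads, both A>G and 0/1. Rsad1 had 2 A>G calls and 1 T>C over 9 or 10 reads, Mfn1, a mitochondrial fusion gene, 1 A>G over 13, and Rnf149 1 intronic A>G over 7. In introns both orientations occurred: 24 of 47 calls were A>G in Nova1, a splicing regulator, 22 of 31 in Cadps, 3 of 6 in Son, 2 of 3 in Zfp14 and 0 of 1 in Copa.

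The share of genes with a call differed between the other lists. Of 16 machinery genes, 8 had an RNA-only substitution in these regions, and 2 of these held calls of the set, where 70.9% of all such genes did: Adad1, a testis relative of the ADARs, had 10 A>G of 15, and A1cf, a cofactor of C-to-U editing, 3 of 7, all of them intronic and 1/1 in dense windows. Of 17 sensors of double-stranded RNA and their signalling partners, 4 had an RNA-only substitution and 3 held calls, all in dense windows. Trim25, a ubiquitin ligase acting on RIG-I, had 18 A>G of 33. Its 3'UTR held 6 A>G calls over 25 to 151 reads, of which 4 lay at positions 89017317 to 89017331 of chromosome 11, and 4 T>C calls over 30 to 92 reads. Eif2ak2, the kinase PKR, had 1 A>G and 1 T>C in the 3'UTR over 61 and 29 reads, and Stat2, an interferon signalling factor, 3 A>G of 4. Of 20 binding and paraspeckle genes 7 had an RNA-only substitution, and 5 held 17 calls, of which 8 were A>G, with Elavl1, an mRNA-stabilising protein, at 3 of 3. Of the 15 keratinocyte markers, Krt8 held 1 T>C.

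The bases beside the changed one could be read at few sites. ADARs are known to disfavour a G before the edited A and to favour a G after it. Among 18 A>G sites in RefSeq promoter or hairpin sequence, 4 had G before and 5 had G after, and among 26 T>C sites 4 and 4 had a G at the same places. Among 15 RNA-only G>A sites there were 7 and 5. These numbers are too small to compare.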

How the data were processed

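Per the labels, A223 cells were grown in culture, polyA RNA and exonic DNA were read in 1 library each, and the submitters' processing notes name BWA and GATK, without versions. The caller settings and the build are not given in the sources used here. The copies of the variant table for both samples were the same, and 1 was used. It holds, per the file headers, a genotype in exome and in RNA (0/1, 1/1 or a dash), the effect, the transcript notation and the RNA depth of each position as a deposited read count without normalisation. In 34 rows, 2 of them calls of the set, the depth is not a single number, and depth was left out there.

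From these, shares were computed with exact Clopper-Pearson 95% intervals and differences with Newcombe 95% intervals (Python 3.11.15, pandas 2.3.3, scipy 1.17.1, statsmodels 0.14.6). With 1 library of each kind there is no test, and no difference has a replicate check. Chaining and shares were tested on simulated data. Strand came from the transcript notation. Genes were named if they held most calls (20 genes), formed the 10 largest clusters, had the 10 deepest calls or stood on the editing and sensor lists; genes of clusters of 1 kind and of 3'UTRs with 1 orientation were named after their values were seen. The calls, lists and windows were chosen with earlier results of these data known. Alternatives changed depth, region, window, distance and calls per gene. Positions are printed as deposited; the bases checked equalled those of GRCm38.p6. Some genes that this rule names are not reported here.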

Additional observations from a re-analysis of the deposited data

How the results depend on the processing

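No paired analysis was possible because there is 1 RNA library and 1 exome library, and no replicate could be left out. The A-to-G type share of 34.4% was 35.1% at 10 or more RNA reads, 36.0% at 20 or more, 37.9% in 3'UTRs, 35.5% in sparse and 33.9% in dense windows. The A>G share in sense of 51.3% was 52.4% at 20 or more reads, 57.5% in 3'UTRs, 50.8% in introns, 53.0% with 1 call per gene, 52.6% in sparse and 50.6% in dense windows. The share of calls with a neighbour, 44.0%, was 42.1% at 10 or more reads, 46.9% at 20 or more, 43.4% in 3'UTRs, 44.8% in sparse and 46.9% in dense windows, 42.4% without calls within 1000 bases of an exome call, 32.9% at 50 bases and 55.7% at 200 bases; with 1 call per gene it was 0% by construction. The 1/1 share of 61.0% was 43.8% at 10 or more reads, 45.3% at 20 or more, 40.8% in 3'UTRs, 62.4% in introns, 46.3% with 1 call per gene, 58.7% in sparse and 67.4% in dense windows and 57.8% without calls near an exome call. Of the 20 genes with most calls, 6 stayed among the first 20 at 20 or more reads and 2 in sparse windows. Median coverage of 7 was 28 in 3'UTRs. The share of A>G sites with G before, 22.2%, was 0% at 20 or more reads, at 1 site, and had no site in sparse windows. The A>G share of the set was above 50% in each of these alternatives. So was the share of G>A in sense of the RNA-only G-to-A type, at 51.4% over all its calls (51.0 to 51.8).

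Chosen after the data were seen, the 195 A>G clusters of 1 kind became 99 with a minimum of 4 calls, 52 with 5 and 72 at 10 or more reads, and T>C stayed below A>G at 14, 9 and 14. They numbered 192 at 50 bases, 179 at 200, 134 at 5 or more reads, 149 without 1/1 calls and 201 with exome-called RNA calls chained too. The 3'UTR share of A>G, 57.5%, was 57.8% without Prune2 and 53.5% with 1 call per gene. The 0/1 share of sparse-window 3'UTRs, 78.0%, was 78.0% at 20 or more reads. Causes of these movements were not tested. Not run were the alternatives on database identifiers, which were not used here, and on repeat sequence, which needs a genome.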

Other observations

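Outside the introns and 3'UTRs, RNA-only missense calls included recoding positions of the ADAR target list, chosen after their values were seen. Copa, a coatomer subunit, had p.Ile164Val at chromosome 1 position 172092348, called 0/1 over 102 RNA reads. Cog3, a Golgi tethering subunit, had p.Ile635Val at chromosome 14 position 75719719, called 1/1 over 50 reads. Both are A>G along the transcript, and the exome gave no genotype at either of them. The list of 40 genes held 3 of the 189 RNA-only missense calls of the A-to-G type and 1 of the 419 of other changes. The Copa and Cog3 changes are of a kind known from recoding in these proteins.

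Of 189 RNA-only missense calls of the A-to-G type, 128 were A>G in sense (67.7%, exact 95% interval 60.6 to 74.3); which changes alter a codon depends on the base, so this share has no even expectation. Synonymous calls stood at 45.3% (136 of 300, 39.6 to 51.2), calls in non-coding exons at 50.8%, downstream calls at 52.6% (51.7 to 53.6), upstream calls at 50.5% and intergenic calls at 50.4%. The A-to-G type took 47.5% of the 8096 RNA-only substitutions in non-coding exons, a larger share than in 3'UTRs, at a sense share near 50%.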
